A study of Mus musculus with 3 samples.

Results

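Creb3l1, Xbp1, Atf4, Atf6, Ddit3, Hspa5, Hsp90b1, Sec23a and Sec24d are 9 genes that a cell uses to fold proteins in the endoplasmic reticulum (ER), to answer ER stress and to ship secreted proteins onward. Their probe sets were found by name, with no threshold on signal: every probe set whose only gene symbol in the array's annotation is 1 of these 9 was taken. This gave 20 of the 45037 non-control probe sets on the array, and 9 of 18193 named genes. The 3 populations came from endosteal cells, which line the inner surface of bone. Collagenase released them from femur and tibia fragments of C57BL/6 mice, and cells without CD45, CD31 and Ter119 were taken so as to leave out blood and endothelial cells. Sorting gave cells with ALCAM but no Sca-1 (ALCAM+), cells with Sca-1 but no ALCAM (Sca-1+) and cells with neither (marker-negative). The labels name no mutation and no treatment, and give neither the age nor the number of mice nor whether mice were pooled. Total RNA of each population was amplified, labelled with biotin and hybridised to 1 array. With 1 array per population there is no replicate, no SD and no test, and every difference given is between single arrays.

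The values are MAS5 signal intensities on a linear scale. A floor was set at the median of all non-control signals, 75.4, and a signal under it was raised to it before differences were taken. Of the 20 probe sets, 19 were above the floor on at least 1 array and 18 on all 3. Where a gene had several probe sets, the one with the highest mean signal represents it. All 9 genes were measured, meaning that at least 1 array had them over the floor, as were 12643 of all named genes. A log2 difference of 1 or more, a 2-fold ratio, was the size that counted as higher or lower. Probe sets differ in how strongly they bind, so genes were compared by their differences between arrays and not by their levels; sums over marker genes are given only to compare the arrays.

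A cell that secretes much protein, as a bone-forming osteoblast does with type I collagen, depends on the ER to fold it and on vesicles to carry it to the Golgi. When unfolded protein builds up, membrane sensors start the unfolded protein response (UPR): IRE1, encoded by Ern1, splices Xbp1 RNA into the form that codes for an active factor, PERK, encoded by Eif2ak3, raises translation of Atf4, and Atf6 moves to the Golgi where site proteases release its active part. Creb3l1, also called OASIS, is a membrane-bound factor cut by the same proteases, and it is known in osteoblasts as an activator of type I collagen genes. Because splicing, translation and cleavage set the activity of these factors, an RNA signal is not a measure of their activity. COPII vesicles, whose coat holds Sec23 and Sec24 proteins, carry cargo out of the ER, and human CREB3L1, SEC23A and SEC24D are known as genes of inherited skeletal disease.

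Promoter sequences were read for the members because several are textbook carriers of UPR elements. Stretches came from the RefSeq promoter table of build GRCm38.p6, which gives 250 bases before to 50 after an annotated start. It held 7 of the 9 members, all but Creb3l1 and Atf6. Elements were searched on both strands. The ER stress response element was CCAAT, then 9 bases of any kind, then CCACG, and it was present in 39 of 32851 promoters (0.119%). The core of the UPR element, TGACGTGG, was in 222 (0.676%). Capitals mark these matches, and each stretch is written 5′ to 3′ on the strand of the gene: Hspa5 at chr2:34772005-34772063 (plus strand), Hsp90b1 at chr10:86705513-86705676 (minus strand) and Sec24d at chr3:123267450-123267497 (plus strand).
Hspa5: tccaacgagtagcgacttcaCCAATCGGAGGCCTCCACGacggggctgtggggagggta
Hsp90b1: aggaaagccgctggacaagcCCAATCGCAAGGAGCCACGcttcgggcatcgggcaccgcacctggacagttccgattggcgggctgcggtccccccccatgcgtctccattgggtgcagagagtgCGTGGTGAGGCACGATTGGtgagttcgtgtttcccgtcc
Sec24d: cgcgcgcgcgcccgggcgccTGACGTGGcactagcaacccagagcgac
The chaperone gene Hspa5 held 1 ER stress response element, at -65 to -47 from its start. Hsp90b1 held 1 in the forward direction at -212 to -194 and 1 on the opposite strand at -107 to -89. The COPII gene Sec24d held the 8-base UPR core at -26 to -19. No match overlapped another. The windows of Xbp1, Atf4 and Ddit3 held none of the searched elements, which were these and the variant element ATTGGNCCACG (0.0365% of promoters), the cAMP response element TGACGTCA (1.79%) and the amino acid response element TGATGNAAN (3.95%).

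The arrays were alike in their general measures. The share of probe sets above the floor was 48.9 to 51.4%, and the ratio of 3′ to 5′ control signal was 2.55 to 2.77 for Actb and 3.75 to 3.96 for Gapdh. Alcam itself read 267.7 in ALCAM+ cells, and was below the floor in both other populations at 41.1 and 36.3. The arrays differed in their spike-in controls: the geometric mean of 17 poly-A control probe sets was 784 in ALCAM+ cells, 404 in Sca-1+ cells and 506 in marker-negative cells, and that of 18 hybridization controls was 5008, 2893 and 3553. Scaling on the poly-A controls instead of the overall signal shifts the log2 differences of probe sets well above the floor by a constant. It lowers those of ALCAM+ against marker-negative cells by 0.63 and of ALCAM+ against Sca-1+ cells by 0.96. It adds 0.33 to those of Sca-1+ against marker-negative cells. The hybridization controls shift them by -0.50, -0.79 and 0.30. Genes near the floor, or whose brightest probe set changes with the scaling, can move by other amounts. A smaller difference can therefore change its sign with the scaling.

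Cell type markers also differed between the populations. The summed signal of 5 osteoblast markers (Alpl, Ibsp, Sp7, Col1a1, Ifitm5) was 122462 in ALCAM+ cells, 8588 in Sca-1+ cells and 45348 in marker-negative cells, with all 5 above the floor in each. Of 5 osteocyte markers, 2, 1 and 2 were above the floor, and the sums were 23244, 1448 and 1320.1. All 9 chondrocyte markers were above the floor in ALCAM+ and marker-negative cells (sums 211634 and 173405) and 7 in Sca-1+ cells (4467). Fibroblast and progenitor markers summed to 5924 (4 of 8 above the floor), 107622 (8) and 3165 (5) in the same order. Granulocyte markers summed to 412 (2 of 9), 14618 (7) and 3751 (7), with Mpo lowest in ALCAM+ cells at 25.2 and highest in marker-negative cells at 1355, and Ngp highest in Sca-1+ cells at 4538. Markers of erythroid and of dividing cells were highest in marker-negative cells: 17469 against 383 in ALCAM+ and 294 in Sca-1+ cells for 7 erythroid markers (7, 2 and 1 above the floor), and 20652 against 1109.6 and 1008 for 5 dividing-cell markers (5, 4 and 3). Macrophage and osteoclast markers summed to 7864 in ALCAM+ cells, 11208 in Sca-1+ cells and 4387 in marker-negative cells. Ctsk made up most of each sum, at 6778, 9739 and 3290.3, while Ctss was highest in ALCAM+ cells at 342.3, 39.9 and 208.3. Of 5 endothelial markers 1, 1 and 0 were above the floor (sums 175.6, 757.8 and 139). Pecam1 was below it throughout at 7.0, 5.2 and 9.1, while Tek read 630.6 in Sca-1+ cells and was below the floor in ALCAM+ and marker-negative cells at 28.8 and 18.8. The signal of a sorted population cannot tell fewer cells of a type from less RNA per cell. The part of these cell types in the differences below was not tested.

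Most of the 9 genes differed little between the populations, and Creb3l1 stood apart. Creb3l1 was the only member at least 2-fold higher in ALCAM+ cells than in marker-negative cells, where 6.68% of all measured genes were. None of the 9 was at least 2-fold lower there, against 10.6% of all genes. Between Sca-1+ and marker-negative cells 0 of 9 members were 2-fold higher and 0 lower, against 15% and 12.7% of all genes. ALCAM+ cells were at least 2-fold above Sca-1+ cells for 2 members, Creb3l1 and Sec23a (11.2% of all genes), and at least 2-fold below for 0 (15.8% of all genes). The 3 comparisons share arrays, and the last is the difference of the other two. The counts over all genes depend on the scaling. On the poly-A and hybridization controls, 376 and 433 genes were higher and 3375 and 2762 lower in ALCAM+ cells than in marker-negative cells, in place of 845 and 1338. Sca-1+ against marker-negative cells gave 2837 and 2727 higher and 1198 and 1221 lower, in place of 1894 and 1606. ALCAM+ against Sca-1+ cells gave 550 and 646 higher and 5790 and 4911 lower, in place of 1416 and 1999.

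As deposited, 7 of the 9 members had their highest signal in ALCAM+ cells, 2 in marker-negative cells and 0 in Sca-1+ cells. Over all measured genes the shares were 28.1%, 33.2% and 38.7%. The 7 include Hspa5, whose probe sets did not share 1 highest population. The median log2 difference of the members was 0.30 for ALCAM+ against marker-negative cells (all genes -0.03), -0.23 for Sca-1+ against marker-negative cells (all genes 0.00) and 0.51 for ALCAM+ against Sca-1+ cells (all genes -0.01). With poly-A scaling these medians became -0.33, 0.09 and -0.45, while those of all genes moved to -0.58, 0.27 and -0.89. In the 3 comparisons 7, 2 and 8 of 9 members were above 0 as deposited. Poly-A scaling gave 1, 6 and 2, and hybridization control scaling gave 4, 6 and 2. Above the all-gene median lay 7, 2 and 8 of 9 members, as deposited and with either control scaling. Quantile normalization, which moves genes separately, put 6, 3 and 7 above that median, and the mean of all probe sets of a gene 7, 2 and 7. The differences were nevertheless small against the disagreement between probe sets of 1 gene. Over 4152 genes with 2 probe sets above the floor on every array, the SD between their log2 differences was 0.54, 0.67 and 0.75 in the 3 comparisons, in the order above. Members exceeding these values were Creb3l1, Sec23a and Sec24d for ALCAM+ against marker-negative cells, Ddit3 for Sca-1+ against marker-negative cells, and Creb3l1 and Sec23a for ALCAM+ against Sca-1+ cells.

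**Figure D1:**
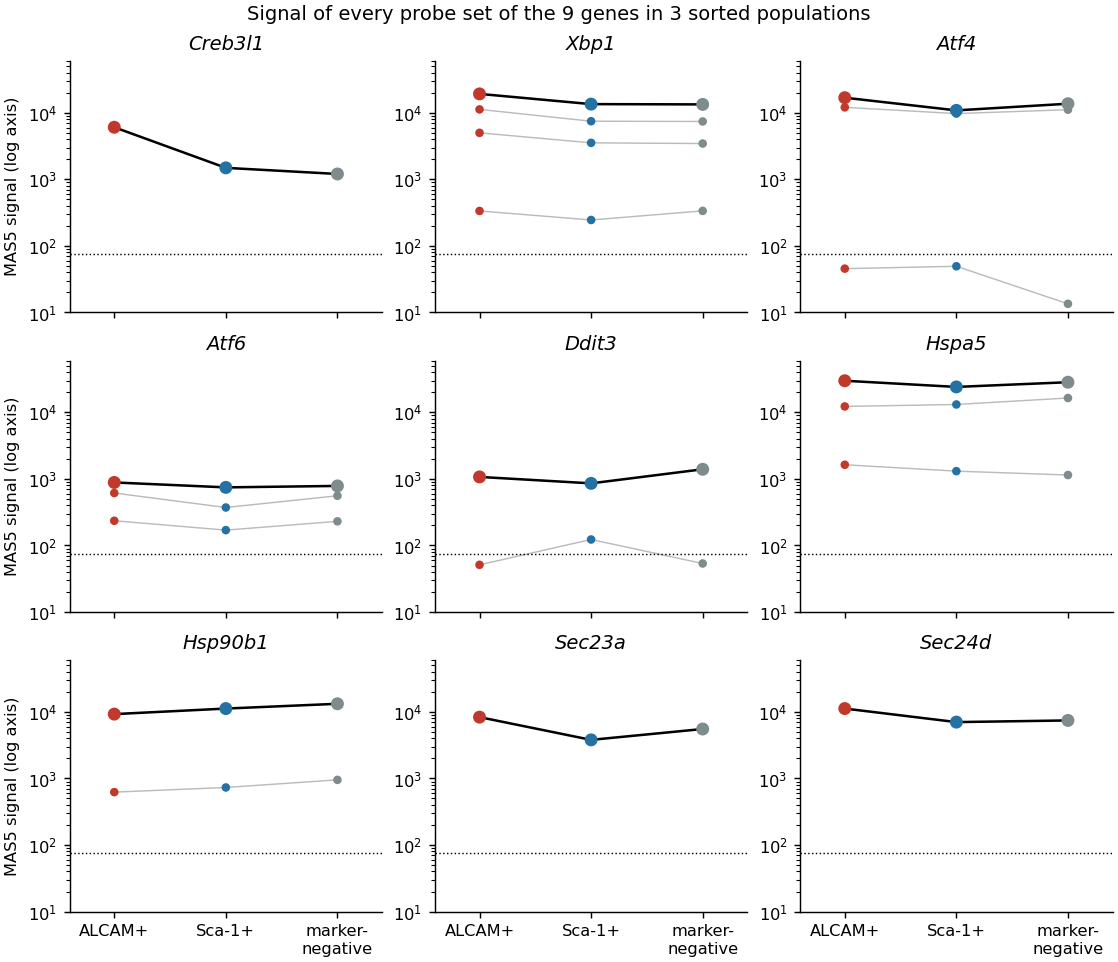
Deposited signal of each of the 9 genes (log10 axis, MAS5 units) in the ALCAM+, Sca-1+ and marker-negative arrays; each line is 1 probe set, drawn heavy for the one that represents the gene, and the dotted line is the floor of 75.4. Creb3l1 is at 6079 in ALCAM+ cells and near 1492 and 1207 in the others, while most other genes run nearly flat.

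Creb3l1, the membrane-bound factor, read 6079 in ALCAM+ cells, 1492 in Sca-1+ cells and 1207 in marker-negative cells from its single probe set, 1419295_at. ALCAM+ cells were therefore 5.04-fold above marker-negative cells (log2 difference 2.33) and 4.07-fold above Sca-1+ cells (2.03). Sca-1+ and marker-negative cells lay close, 1.24-fold apart (0.31), which is less than the usual gap between probe sets. Of all measured genes, 98.5% had a lower difference between ALCAM+ and marker-negative cells, and 96.1% between ALCAM+ and Sca-1+ cells. Creb3l1 stayed higher in ALCAM+ cells in both comparisons with quantile normalization and both control scalings, at 1.70 and 1.07 with poly-A scaling. The other alternative settings, of floor, filter and choice of probe set, could not change it. Its 1 probe set lay above every floor on all arrays. No second probe set measures this gene. Among 9878 other genes above the floor on all arrays, the profiles nearest in shape over the 3 arrays were those of Itga7, Rasa3 and Card6. Itga7, an integrin chain that binds laminin, read 962.8, 241.1 and 214.1 in ALCAM+ cells, Sca-1+ cells and marker-negative cells. Rasa3, a GTPase-activating protein for Ras-family proteins, read 6822, 1508 and 1363. Card6, a caspase recruitment domain protein, read 426.1, 109.9 and 78.1, its lowest value just over the floor. With only 3 points, such likeness describes these arrays alone.

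The osteoblast and osteocyte markers named above were also highest in ALCAM+ cells, and their part in the level of Creb3l1 was not tested. The type I collagen genes, known targets of Creb3l1 in osteoblasts, had the same highest population. Col1a1 read 49506 in ALCAM+ cells, 7959 in Sca-1+ cells and 13081 in marker-negative cells, so that ALCAM+ cells were 3.78-fold above marker-negative and 6.22-fold above Sca-1+ cells; it is also 1 of the 5 osteoblast markers summed above. Col1a2 read 41835, 23516 and 26367 in the same order, within 2-fold on its representative probe set. Its 2 other probe sets went the same way in ALCAM+ against marker-negative cells, 1 of them past 2-fold. The lowest reading was in Sca-1+ cells for Col1a1 and in marker-negative cells for Creb3l1. For Creb3l1 the log2 difference between these populations, 0.31, was under the usual gap between probe sets, so its lowest population was not settled.

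The other 4 CREB3 family genes did not share 1 pattern. Creb3 read 5536 in ALCAM+ cells, 3993 in Sca-1+ cells and 4358 in marker-negative cells, log2 differences of 0.34 and -0.13 against marker-negative cells. Creb3l2, a close relative of Creb3l1 known for work in cartilage, ran the other way at 3062, 3562 and 6807. That was 2.22-fold lower in ALCAM+ cells than in marker-negative cells (-1.15). A second Creb3l2 probe set went in the same direction by under 2-fold. Creb3l3, known from liver and intestine, read 1259 in ALCAM+ cells and only 128.2 and 190.3 in Sca-1+ cells and marker-negative cells, log2 differences of 3.30 and 2.73 on 1 probe set. Creb3l4 was just above the floor in ALCAM+ cells at 81.8 and below it elsewhere at 15.9 and 13.4. Thus 2 of 5 family members were at least 2-fold higher and 1 was lower in ALCAM+ cells than in marker-negative cells, with a median of 0.34. That median of 5 genes moved with the floor, to 1.95 and 0.94 with floors at the 25th and 75th percentile.

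The proteases that release Creb3l1 and Atf6 varied less than Creb3l1 itself. They are named here for that role, chosen with their values known. Mbtps1, the site-1 protease, read 3537 in ALCAM+ cells, 4686 in Sca-1+ cells and 4184 in marker-negative cells. Mbtps2, the site-2 protease, read 1443, 1113 and 1490.1. The list of 7 processing genes, which also holds the sterol-regulated users of the same proteases, had 1 gene higher and 1 lower in ALCAM+ cells than in marker-negative cells and a median of -0.05. The higher one was Insig2, which holds sterol regulators in the ER, at 5046 against 1850.3. The lower was Srebf1, a regulator of lipid synthesis genes, at 1834 against 5815. Of all measured genes 6.68% were 2-fold higher in that comparison and 10.6% lower. Insig1 was the only one of the list 2-fold lower in Sca-1+ cells than in marker-negative cells (12.7% of all measured genes). It read 499 against 1614 there, and 1786 in ALCAM+ cells.

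Xbp1 had its highest signal, as deposited, in ALCAM+ cells. Its representative probe set, 1437223_s_at, read 19281 in ALCAM+ cells, 13531 in Sca-1+ cells and 13404 in marker-negative cells, a 1.44-fold ratio of highest to lowest. Of the other 3 probe sets, 1420886_a_at read 11276, 7493 and 7421, and 1420011_s_at read 5011, 3544 and 3459. These 3 sets gave 0.52 to 0.60 for ALCAM+ against marker-negative cells and 0.01 to 0.04 for Sca-1+ against marker-negative cells. The dim set 1420012_at read 335.8, 245.6 and 336.7 and placed Sca-1+ cells lowest. The annotation does not assign these probe sets to spliced or unspliced Xbp1 RNA, so splicing by IRE1 was not measured. With poly-A scaling the ALCAM+ signal of Xbp1 was below both other populations, with log2 differences of -0.11 against marker-negative and -0.45 against Sca-1+ cells. Plasma cells are known for high Xbp1, and of 10 plasma and B cell markers 3, 1 and 3 were above the floor in ALCAM+ cells, Sca-1+ cells and marker-negative cells, with summed signals of 1113, 3237 and 2105. Sdc1 made up most of these sums, at 720.9, 2939.5 and 1614. Mzb1 passed the floor in ALCAM+ cells alone (101.4), Pou2af1 in marker-negative cells alone (152.1) and Prdm1 in both of these populations (119.2 and 84.5). On representative probe sets Jchain, Cd79a, Cd79b, Ms4a1, Tnfrsf17 and Irf4 were below the floor on all arrays. Another probe set of Irf4 was above it in Sca-1+ cells alone.

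Atf6, the factor released in the Golgi, had the narrowest span of the 9 representative probe sets. It read 885.4 in ALCAM+ cells, 746.8 in Sca-1+ cells and 785.1 in marker-negative cells on 1435444_at, a span of 1.19-fold. The mean of its probe sets spanned more, with -0.37 for Sca-1+ against marker-negative cells and 0.48 for ALCAM+ against Sca-1+ cells. Its other probe sets read 614.2, 372.1 and 558.5 (1456021_at) and 235.2, 170.1 and 230.5 (1453288_at). All 3 placed ALCAM+ cells highest and Sca-1+ cells lowest, and the gap between those populations ranged from 0.25 to 0.72 on the log2 scale. ALCAM+ cells became the lowest of the 3 populations for the representative set with either control scaling. In the list of 6 genes drawn up as UPR sensors and partners, no representative probe set reached a 2-fold difference in any comparison. Of all measured genes 6.68% to 15.8% did, by comparison and direction. Eif2a is on this list, but the gene of that symbol encodes neither a UPR sensor nor the target of PERK. Another probe set of it was past 2-fold lower in both other populations than in marker-negative cells. Ern1 read 715.6, 994.9 and 1190.2 in ALCAM+ cells, Sca-1+ cells and marker-negative cells. Eif2ak3 read 1713, 2220 and 1295, and Atf6b, the relative of Atf6, read 390.6, 498.5 and 294.5. The list's medians, with Eif2a counted, were -0.05, 0.01 and -0.35 in the 3 comparisons.

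**Figure D2:**
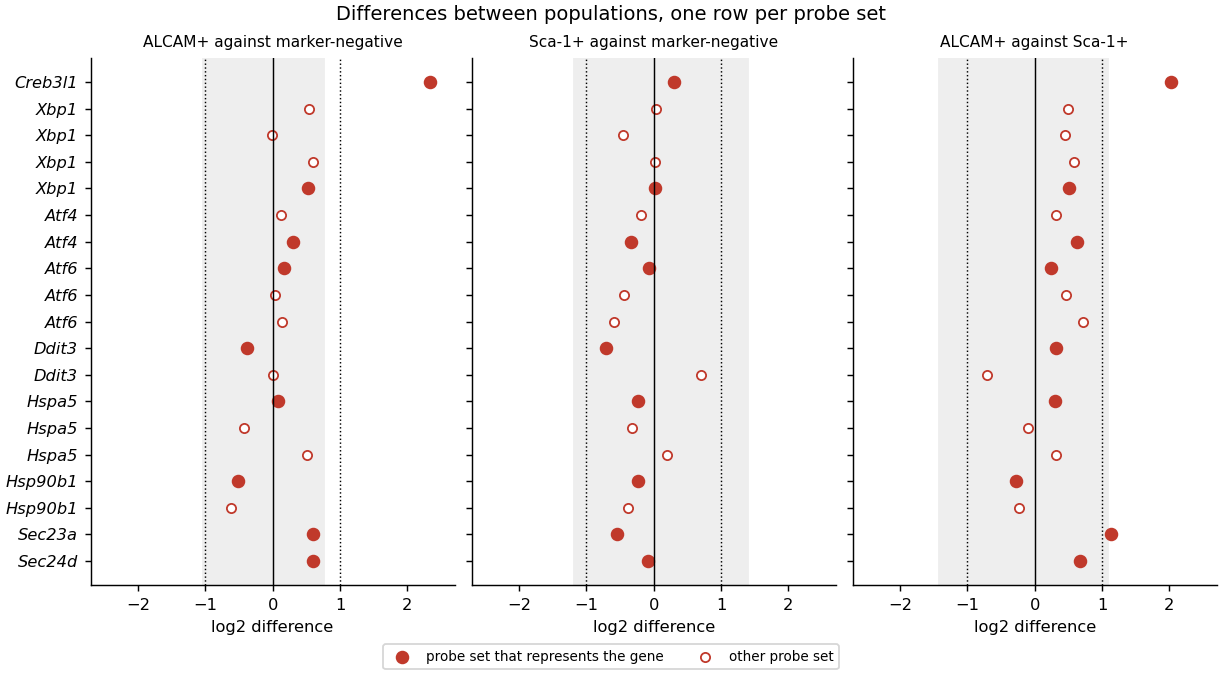
Log2 differences of the 19 measured probe sets of the 9 genes, in 3 panels for the 3 comparisons; filled points represent the gene, dotted lines mark 2-fold, and the grey band runs from the 10th to the 90th percentile of all measured genes. Creb3l1 lies outside the band at 2.33 and 2.03, while the 3 Hspa5 probe sets and the Ddit3 probe sets fall on both sides of 0.

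Atf4, the factor of the integrated stress response, was lowest in Sca-1+ cells as deposited. Probe set 1448135_at read 16904 in ALCAM+ cells, 10897 in Sca-1+ cells and 13719 in marker-negative cells. The second, 1438992_x_at, read 12103, 9756 and 11154 in the same order of populations, and 1439258_at was below the floor on all arrays at 45.6, 49.5 and 13.5. The log2 difference of Sca-1+ against marker-negative cells was -0.33 on the first and -0.19 on the second set, and that of ALCAM+ cells was 0.30 and 0.12. These are under the usual gap between probe sets, and with poly-A scaling ALCAM+ cells became the lowest, at -0.33 against marker-negative and -0.32 against Sca-1+ cells, while Sca-1+ against marker-negative cells was -0.01. The hybridization controls gave -0.19, -0.16 and -0.04. Ddit3, which encodes the stress factor CHOP that acts downstream of Atf4, was highest in marker-negative cells. On 1417516_at it read 1072 in ALCAM+ cells, 858.1 in Sca-1+ cells and 1396 in marker-negative cells, log2 differences of -0.38 and -0.70 against marker-negative cells. Its dim second probe set, 1443897_at, read 51.2, 123.0 and 53.6 and put Sca-1+ cells highest, so the direction of Ddit3 rests on the brighter set. Its difference between ALCAM+ and Sca-1+ cells, 0.32 as deposited, turned to -0.64 and -0.47 with the poly-A and hybridization controls.

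Some targets of the integrated stress response had far wider spans than Atf4 or Ddit3, and others, such as Ppp1r15a (1.08-fold) and Cebpb (1.21-fold), picked with their values known, narrower ones. Of 19 measured genes of the list, which holds Atf4 and Ddit3 too, 1 was at least 2-fold higher and 6 were lower in Sca-1+ cells than in marker-negative cells, with a median of -0.38. In ALCAM+ against marker-negative cells 1 was higher and 0 lower (median 0.10), and in ALCAM+ against Sca-1+ cells 5 were higher and 1 lower (0.40). Over all measured genes the shares higher and lower, in the same order, were 15% and 12.7%, 6.68% and 10.6%, and 11.2% and 15.8%. With poly-A scaling the list medians were -0.05 for Sca-1+ and -0.61 for ALCAM+ against marker-negative cells and -0.63 for ALCAM+ against Sca-1+ cells, so both ALCAM+ medians turned. Chac1, an enzyme that degrades glutathione, read 2953 in ALCAM+ cells, 285.0 in Sca-1+ cells and 2912 in marker-negative cells, 10.2-fold lower in Sca-1+ cells than in marker-negative cells. Sesn2, a stress-induced inhibitor of mTORC1 signalling, read 783.3, 141.1 and 998.9, 7.08-fold lower in that comparison. Psat1, of serine synthesis, read 1583, 203.2 and 980.1, 4.82-fold lower. As deposited, ALCAM+ and marker-negative cells were thus alike for Chac1, on its single probe set, and for Sesn2, and Sca-1+ cells were low for all 3. Poly-A scaling lowers such differences of ALCAM+ against marker-negative cells by 0.63, so the likeness depends on the scaling. The other 3 lower genes were Asns (2.73-fold), Trib3 (2.04-fold) and Ddit4 (2.03-fold), named once their values were known to complete the count. The exception was Atf5, a factor translated under the same stress, at 1217, 5510 and 1130.3 and so 4.88-fold higher in Sca-1+ cells than in marker-negative cells. Nupr1, a chromatin protein induced by stress and also named with its value known, was the 1 target higher in ALCAM+ cells than in marker-negative cells, at 26461 against 11653 (2.27-fold) and 9866 in Sca-1+ cells. The amino acid response element was in 7 of 18 promoters of the list: Aars, Asns, Atf3, Chac1, Nupr1, Slc7a11 and Trib3.

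**Figure D3:**
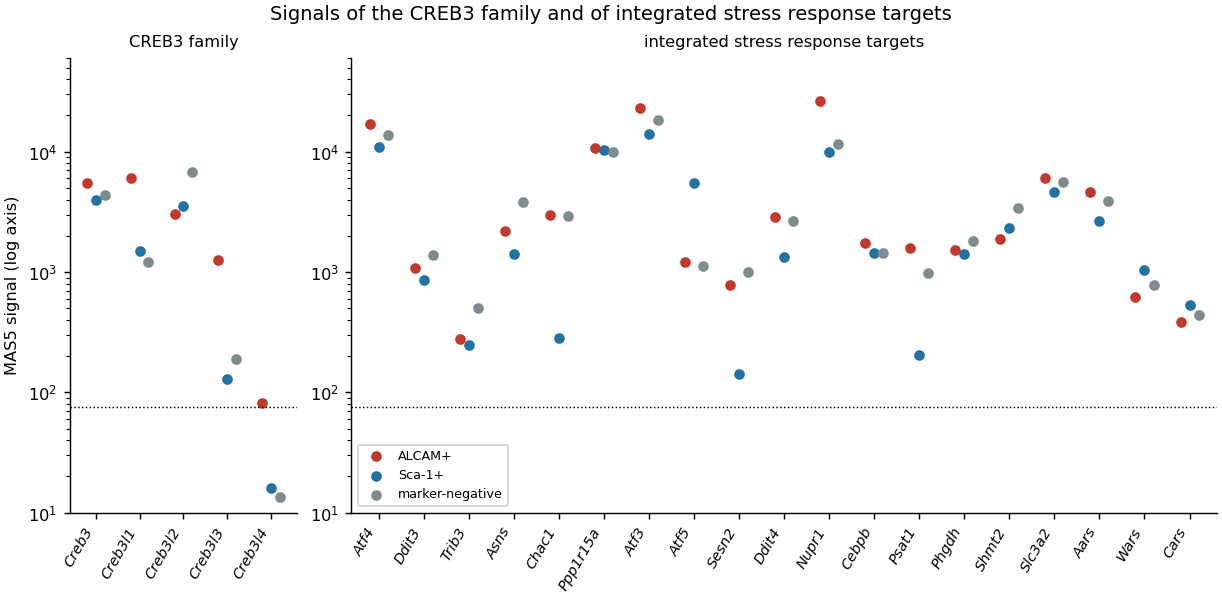
Deposited signals (log10 axis, MAS5 units) of the 5 CREB3 family genes and the 19 measured genes of the integrated stress response list, as 1 point per population, with the floor of 75.4 as a dotted line. Creb3l1 and Creb3l3 are highest in ALCAM+ cells and Creb3l2 in marker-negative cells at 6807, and the Sca-1+ points of Chac1, Sesn2 and Psat1 lie far below the others.

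Hspa5, which encodes the ER chaperone BiP, gave no single order of populations. Its representative probe set, 1416064_a_at, read 29883 in ALCAM+ cells, 24138 in Sca-1+ cells and 28400.0 in marker-negative cells, a 1.24-fold span. Probe set 1427464_s_at read 12291, 13150.2 and 16450 and placed ALCAM+ cells lowest. Probe set 1447824_x_at read 1633, 1309 and 1145 and placed them highest. The log2 differences of ALCAM+ against marker-negative cells were 0.07, -0.42 and 0.51 on the 3 sets, and no direction was taken. Hsp90b1, which encodes the chaperone GRP94, was highest in marker-negative and lowest in ALCAM+ cells on both its probe sets. The first, 1415889_a_at, read 9269.8 in ALCAM+ cells, 11230 in Sca-1+ cells and 13249 in marker-negative cells, and the second, 1438040_a_at, read 623.1, 731.9 and 952.4. ALCAM+ cells were below marker-negative cells by log2 differences of -0.52 and -0.61. This direction held under 8 of 8 alternatives, though changes of floor and filter could not alter it. With poly-A scaling the first difference became -1.15, past 2-fold. Sca-1+ cells lay below marker-negative cells by -0.24 and -0.38, a direction that turned under both control scalings for the first set.

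The wider list of 23 ER chaperones and folding enzymes had medians of -0.02, -0.19 and 0.12 in the 3 comparisons as deposited. With poly-A scaling they were -0.65, 0.14 and -0.84. In ALCAM+ against marker-negative cells 0 were 2-fold higher and 2 lower. These were Hyou1, an ER relative of the HSP70 chaperones, at 1050.6 in ALCAM+ cells, 1969.9 in Sca-1+ cells and 2270.1 in marker-negative cells, and Sdf2l1, an ER cochaperone, at 95.3, 218.6 and 192.9. Pdia5, a protein disulfide isomerase, was the 1 gene lower in Sca-1+ cells than in marker-negative cells, at 6131, 1498 and 4918. Ero1b, an oxidase that serves the disulfide isomerases, read 301.7, 610.7 and 319.7. The ER stress response element shown above for Hspa5 and Hsp90b1 was in 8 of 19 promoters of this list, with Calr, Canx, Creld2, Dnajc3, Ero1b and Pdia6. The differences of these 8 genes in ALCAM+ against marker-negative cells, as deposited, ran from -0.52 to 0.07, with 0 past 2-fold. Only 1 of 8 was above 0, Hspa5, for which no direction was taken. Of all measured genes 43.8% were above 0 there, 6.68% were at least 2-fold higher and 10.6% lower. In Sca-1+ against marker-negative cells 1 of 8 was above 0 (47.6% of all genes). In ALCAM+ against Sca-1+ cells 5 of 8 were (44.7%), and Ero1b was 2-fold lower (15.8% of all genes). On representative probe sets, 0 of 16 genes of ER-associated degradation, which disposes of misfolded proteins, passed 2-fold against marker-negative cells in either population. Of all measured genes 15% were higher and 12.7% lower in Sca-1+ cells, beside the shares given above for ALCAM+ cells. Another probe set passed 2-fold for Edem1, higher in ALCAM+ cells, and for Sel1l, higher in Sca-1+ cells. Sel1l, a subunit of its ubiquitin ligase complex and the 1 gene of the list lower in ALCAM+ than Sca-1+ cells by 2-fold, read 1073 in ALCAM+ cells, 2179 in Sca-1+ cells and 1483 in marker-negative cells.

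Sec23a, of the inner COPII coat, was the second member past 2-fold. It read 8351 in ALCAM+ cells, 3802 in Sca-1+ cells and 5534 in marker-negative cells on its single probe set, 1423347_at. ALCAM+ cells were 2.20-fold above Sca-1+ cells (log2 difference 1.14) and 1.51-fold above marker-negative cells (0.59), and Sca-1+ cells were 1.46-fold below marker-negative cells (-0.54). Sca-1+ cells stayed lowest with quantile normalization and both control scalings, the only alternatives that could change this single set. The difference between ALCAM+ and Sca-1+ cells shrank to 0.18 and 0.34 with the poly-A and hybridization controls. ALCAM+ against marker-negative cells was -0.04 with poly-A scaling. Sec24d, of the part of the coat that selects cargo, read 11232 in ALCAM+ cells, 7029 in Sca-1+ cells and 7447 in marker-negative cells on 1426972_at. Its difference between ALCAM+ and marker-negative cells equalled that of Sec23a at 0.59, while Sca-1+ against marker-negative cells was -0.08, and 0.24 with poly-A scaling. Both its comparisons with ALCAM+ cells turned negative with poly-A scaling, to -0.04 and -0.28.

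The paralogs of these coat proteins were not alike. Sec23b read 3775 in ALCAM+ cells, 2797 in Sca-1+ cells and 3747 in marker-negative cells, nearly level between ALCAM+ and marker-negative cells (0.01). Sec24a had the widest span of the list, at 3071, 1109 and 2438. Sec24b read 560.9, 606.1 and 429.7, and Sec24c ran opposite to Sec24a at 2739, 4605 and 3686. Over 17 measured COPII and ER exit site genes, 0 were 2-fold higher and 0 lower in ALCAM+ cells than in marker-negative cells (median 0.26). In Sca-1+ against marker-negative cells 0 were higher and 1 lower (median -0.41), namely Sec24a. ALCAM+ cells were 2-fold above Sca-1+ cells for 4 of the 17, Sec23a, Sec24a, Sar1b and Sec13, and below for 0 (median 0.45). Over all measured genes the shares higher and lower, in the same order, were 6.68% and 10.6%, 15% and 12.7%, and 11.2% and 15.8%. Sar1b, the GTPase that starts coat assembly, read 6583, 3082 and 5150.4, and Sec13, of the outer coat, 8030.0, 3943 and 7317. These medians of ALCAM+ cells turned negative with the control scalings, to as low as -0.37 and -0.51, whereas the median of Sca-1+ against marker-negative cells stayed below 0 in 8 of 8 alternatives.

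**Figure D4:**
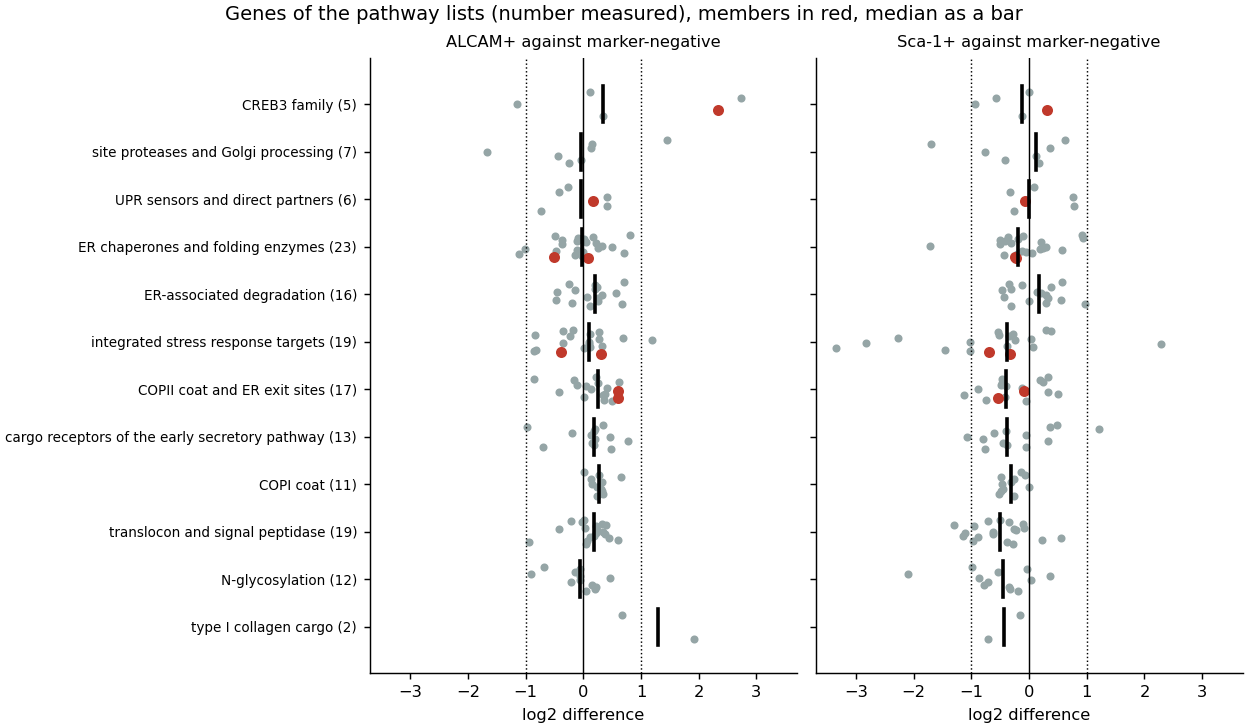
Log2 differences of the measured genes of each pathway list (points, members in red) with the list median (bar), for ALCAM+ and Sca-1+ cells against marker-negative cells; dotted lines mark 2-fold. Medians of the COPII, COPI and translocon lists are 0.26, 0.28 and 0.18 in ALCAM+ cells and -0.41, -0.31 and -0.50 in Sca-1+ cells.

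The other steps of early secretion had negative medians in Sca-1+ against marker-negative cells: -0.31 for COPI, -0.50 for the translocon, -0.38 for cargo receptors and -0.44 for N-glycosylation. On representative probe sets as deposited, all 11 COPI coat genes, whose vesicles return material to the ER, were positive in ALCAM+ against marker-negative cells (median 0.28). In Sca-1+ against marker-negative cells 0 of 11 were. Over all measured genes 43.8% and 47.6% were positive in these comparisons. Some of the 11 were nearly level, such as Gbf1 at 0.005 in the first comparison and Copg2 at -0.006 in the second. Other probe sets did not always share these directions. That of Copa differed in the first comparison, and others of Copg1, Copz1, Arf1 and Arcn1 differed in the second. On representative probe sets only Copz2, a coat subunit, passed 2-fold, between ALCAM+ and Sca-1+ cells, at 12479 and 5648. Other probe sets of Copb2 and Arcn1 passed it in that comparison, and another of Copa in Sca-1+ against marker-negative cells. Of 19 translocon and signal peptidase genes, which bring proteins into the ER, 3 were 2-fold lower in Sca-1+ cells than in marker-negative cells. In ALCAM+ cells 6 were 2-fold higher than in Sca-1+ cells. Of all measured genes 12.7% and 11.2% were. Srp9, of the signal recognition particle, read 6363 in ALCAM+ cells, 1948 in Sca-1+ cells and 4816 in marker-negative cells. Ssr2 and Ssr4, subunits of the translocon-associated complex, read 6394, 2543 and 5637 and 15397, 6131 and 13192. Both other probe sets of Ssr4 shared its lower Sca-1+ signal against marker-negative cells. Neither shared its higher ALCAM+ signal against marker-negative cells. The 1 of them above the floor in ALCAM+ or Sca-1+ cells did not share its direction between those populations. Among 13 cargo receptors Kdelr3, which retrieves ER proteins, read 16308, 5604 and 11770 and Lman1, which carries glycoproteins, 12125, 5104 and 8652. Ergic1 and Tmed10 were highest in Sca-1+ cells instead, at 6470.1 and 10582 against 2545 and 5210.4 in ALCAM+ cells. In N-glycosylation Mogs, which trims the first glucose, read 2617, 1140.3 and 4896 and was 1 of 12 genes lower in Sca-1+ cells than in marker-negative cells. The ALCAM+ medians of the COPI, cargo receptor and translocon lists turned negative under the control scalings. The Sca-1+ medians of the cargo receptor, translocon and N-glycosylation lists kept their sign in 8 of 8 alternatives, while that of the COPI list turned to 0.01.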

How the data were processed

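The authors deposited 1 MAS5 signal intensity per probe set and array, on a linear scale, per the submitters' processing notes; no MAS5 version is stated in these sources. The 2% trimmed mean of the deposited intensities was 500 on each array, so no further scaling was applied. This hides differences in total RNA per cell, and the 2-cycle labelling of the labels' protocols favours 3′ ends. Of 45037 non-control probe sets, 34945 had 1 gene symbol, 932 several and 9160 none listed; 64 control probe sets entered no gene result. Entrez identifiers of 34741 were found in RefSeq, and 0 symbols changed.

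Signals were floored at the pooled median (75.4), 1 probe set per gene was kept by highest mean signal, and log2 differences were taken between arrays with Python 3.11.15, pandas 2.3.3 and numpy 2.4.6. Precision is bounded by there being 1 array for each population. Calculations were tested on simulated data. The 9 genes, the 12 pathway lists and the 10 marker lists were chosen with earlier results of these data known. Genes were named by rule: all members, up to 4 genes per list with the widest difference, paralogs of members, and the 3 profiles nearest to any member with a 4-fold span. Alternatives changed the floor, the filter, the scaling, the choice of probe set and the fold threshold. Gene coordinates were not used, as the array values carry no build. 1 promoter stretch is not reported here.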

Additional observations from a re-analysis of the deposited data

How the results depend on the processing

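Of 216 recomputed member differences, 190 counted as unchanged. Those under 2-fold moved by less than the SD between probe sets of a gene, and those past 2-fold stayed past it. Creb3l1 is among the 190, though with poly-A scaling it moved further than that SD, from 2.33 to 1.70 and from 2.03 to 1.07. Of the differences under 2-fold, 19 moved further and 5 came to pass 2-fold, and 2 others no longer passed it. Of 288 list medians 248 moved by less than that SD. The member counts changed in these cases. At least 2-fold lower in ALCAM+ than in marker-negative cells were 0 members as deposited, 2 with poly-A scaling (Hsp90b1 at -1.15 and Ddit3 at -1.01) and 1 with hybridization control scaling (Hsp90b1 at -1.01). Higher in ALCAM+ than in Sca-1+ cells were 2 as deposited and 1, Creb3l1, with poly-A scaling, hybridization control scaling or a 4-fold threshold. Lower in that comparison were 0 as deposited and 1, Hsp90b1, with either control scaling (-1.23 and -1.07). The scaling was the only change behind these, apart from the 4-fold threshold. Counts over all genes moved with the floor as well as with the scaling: a floor at the 75th percentile (434) gave 433 higher and 526 lower genes in ALCAM+ against marker-negative cells, 1100 and 822 in Sca-1+ against marker-negative cells, and 815 and 1088 in ALCAM+ against Sca-1+ cells. A floor at the 25th percentile (21.1) gave 1484 and 2263, 2406 and 2599, and 2328 and 2653. Creb3l1 was above both floors on every array, and its single probe set and single array per population set the limit on what its difference can show. No replicate could be left out, since each population has 1 array.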
